A study of Saccharomyces cerevisiae with 30 samples.

Results

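HAP1, HAP2, HAP3, HAP4 and HAP5 are 5 budding yeast genes named for heme activator proteins, and their RNA levels were followed here across 30 RNA-seq libraries. They were chosen by name, as the rows that carry these symbols in each of 2 deposited expression tables. All 5 were found, out of 6101 genes in each table. All 5 also passed the filter on low values, which asked for 1 FPKM or more on average across a table. FPKM counts fragments per kilobase of transcript, scaled to the mapped fragments of the library, so levels of different genes can be set side by side.

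HAP2, HAP3, HAP4 and HAP5 encode the subunits of one transcription activator that binds CCAAT boxes upstream of respiratory genes. Hap2, Hap3 and Hap5 together form the part that binds DNA, and Hap4 joins them and carries the activation domain. HAP4 is the subunit gene known to be repressed by glucose, and the complex is best known for driving genes of the respiratory chain, the citric acid cycle and heme synthesis. Hap1 is a separate zinc-cluster activator that responds to heme and acts on its own sites.

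The libraries are of strain BY4741, a laboratory strain of mating type a, and of mutants of it in the coactivator complex SAGA, which acetylates histones through its subunit Gcn5. In the Ada3 set, 12 libraries compare Ada3-3KR, a mutant for acetylation of the subunit Ada3, with the wild type (WT). In the bromodomain set, 18 libraries compare a mutant in the bromodomain of Gcn5 (Gcn5m) and one in the bromodomain of Spt7 (Spt7m) with WT; a bromodomain is a module that binds acetylated lysine. Every culture was grown in YPD, a rich glucose medium, to an OD600 of 0.7 and then moved to YP medium with 2% sucrose or 2% glucose for 30 min, with 3 libraries for each strain and sugar. Sucrose is split outside the cell into glucose and fructose.

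The labels do not say whether the 3 libraries of a group came from separate cultures, so the p-values given here measure the spread between these libraries only. The labels do not say how many clones stand behind each mutant either. Gcn5m and Spt7m are set against the same WT libraries, so those comparisons share their controls. The deposited values hold no counts, so the depth behind them is unknown. Replicates of a group correlated at 0.994 to 0.998 over all genes in the bromodomain set and at 0.995 to 0.997 in the Ada3 set. The mating type a genes MFA1 and MFA2 were high in all 30 libraries (1423 to 5478 FPKM). Of the alpha-specific genes, MF(ALPHA)1 was at most 1.162 FPKM and STE3 at most 3.99 FPKM. MF(ALPHA)2 reached 12.97 FPKM in the Ada3 set and 11.37 FPKM in the bromodomain set. MET17, which BY4741 lacks, was listed at 0 in every library. HIS3, on the same list of strain markers, was not at 0 in any library. It was at 71.6 to 153.7 FPKM in the Ada3 set and 56.8 to 119.9 FPKM in the bromodomain set. The source of these HIS3 values was not tested. URA3, which the strain lacks like MET17, was at most 0.398 FPKM in the Ada3 set. Among the bromodomain libraries URA3 was at 223 to 444 FPKM in Gcn5m and 7079 to 11463 FPKM in Spt7m, against at most 2.30 FPKM in WT. The part of this difference in the results below was not tested.

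HAP4, the activation subunit, had the widest range of group means among the members. Its highest mean was 3.07 times its lowest in the Ada3 set and 3.90 times in the bromodomain set. It did not move most in every comparison. Between the sugars, HAP3 changed more in WT of the bromodomain set (0.78 against 0.45, log2). HAP2 changed more in Ada3-3KR (-0.43 against -0.21). In sucrose the level of HAP4 in Ada3-3KR was 0.326 times that in WT. In the same sugar it was 2.38 times as high in Gcn5m and 1.97 times as high in Spt7m as in their WT. HAP2 moved the same way as HAP4 in each of these 3 comparisons, by smaller amounts. HAP3 was higher in Ada3-3KR, where HAP4 was lower. HAP5 passed the test in none of the mutant comparisons in sucrose.

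**Figure D1:**
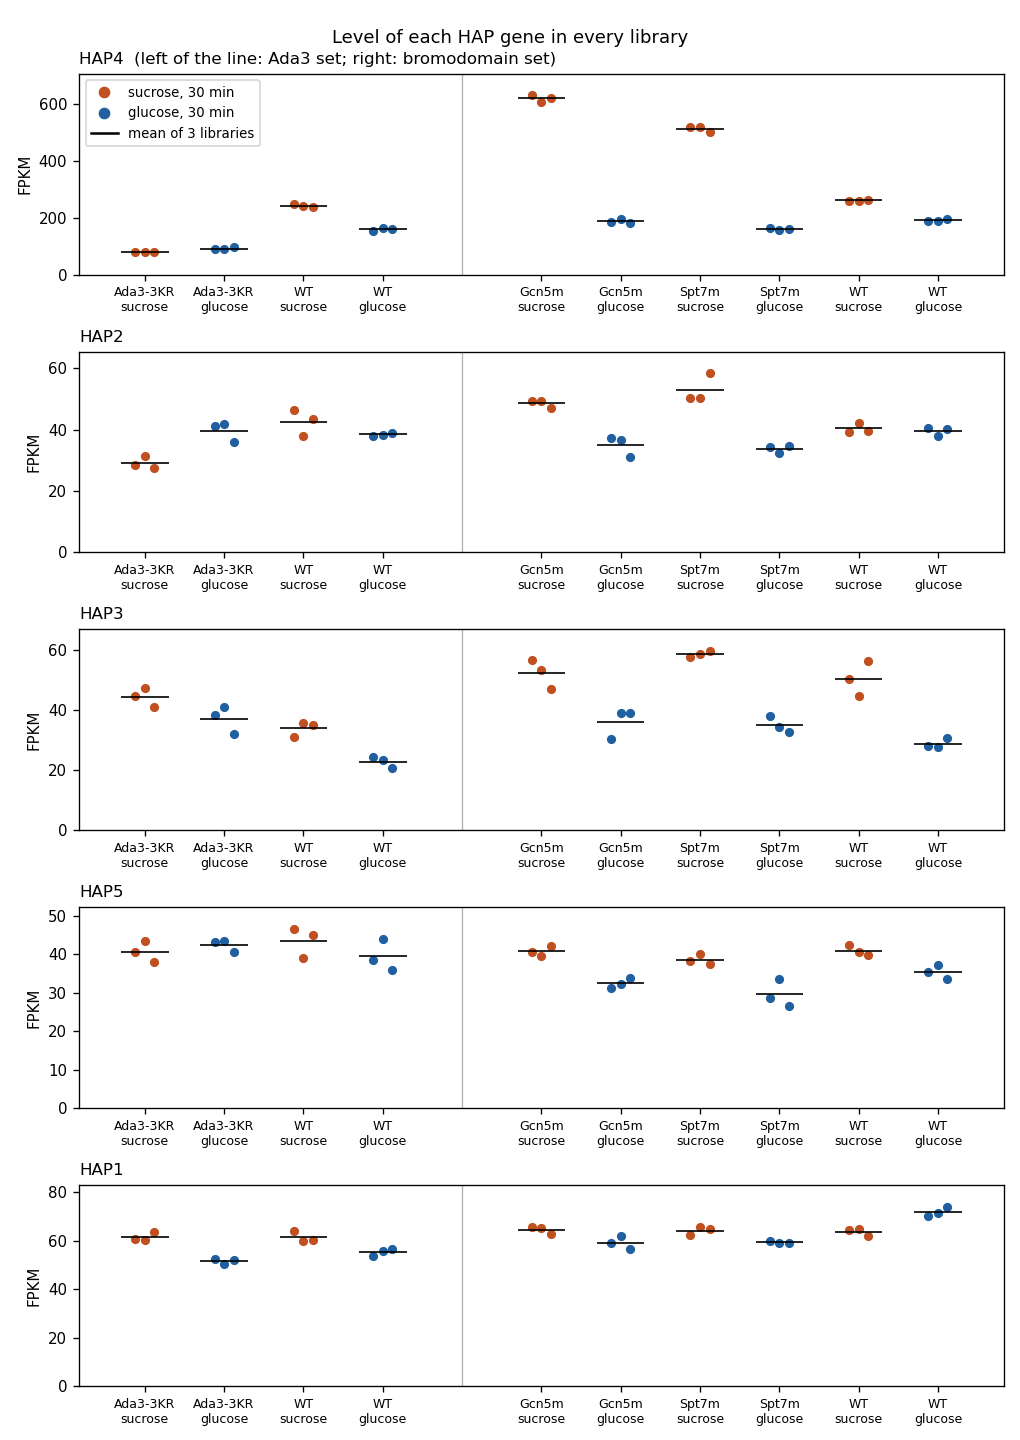
Level of HAP4, HAP2, HAP3, HAP5 and HAP1 (vertical axes, FPKM, each starting at 0) in every library, by strain and sugar; points are libraries and lines are means of 3. HAP4 lies at 606 to 630.2 FPKM in Gcn5m and 501 to 519 FPKM in Spt7m in sucrose and at 77.6 to 79.6 FPKM in Ada3-3KR in sucrose, while HAP1 stays between 50.3 and 73.9 FPKM throughout.

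HAP4 (YKL109W) lies on chromosome XI, positions 232227 to 233891 on the forward strand of build R64, as 1 exon of 1665 bases that overlaps no other annotated gene. The space to the next annotated gene upstream, KTI12, is 2346 bases, against 258 to 461 bases for the other 4 HAP genes. In the 1000 bases before its start codon, HAP4 holds 6 GC boxes of the type bound by the glucose repressor Mig1, and 6 of 5996 genes (0.1%), HAP4 among them, hold at least as many. The hexamer GCGGGG and its forms that begin with CC, GT or CT were searched for on both strands. A match describes the letters only and does not show a bound site.

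Of these boxes, 4 lie in a stretch of 210 bases, printed here because it carries most of them, with GC boxes and 1 CCAAT box in capitals. Of the 4, 2 overlap, as both strands of one palindrome.
HAP4, chrXI:231377-231586, forward strand: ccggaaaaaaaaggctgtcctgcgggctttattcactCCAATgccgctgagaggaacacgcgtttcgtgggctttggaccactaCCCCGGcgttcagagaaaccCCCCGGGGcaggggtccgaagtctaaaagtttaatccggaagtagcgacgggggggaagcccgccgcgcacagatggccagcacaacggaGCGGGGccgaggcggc
The remaining 2 boxes begin at -1000 and -268, counted from the start codon. HAP4 also has 1 extended CCAAT box, the form ACCAATNA found at many sites of the Hap complex. It begins at -95, on the reverse strand, and is in capitals in its 30 bases.
HAP4, chrXI:232121-232150, reverse strand: tgtactaggagACCAATAAatatgtgtgga

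In the Ada3 set, HAP4 was lower in the mutant in both sugars. In glucose it had 88.4, 90.9 and 95.0 FPKM in Ada3-3KR, against 152, 164 and 159 FPKM in WT. In sucrose it had 79.4, 79.6 and 77.6 FPKM in Ada3-3KR, against 248.7, 239.8 and 238 FPKM in WT. In each sugar all 3 Ada3-3KR libraries lay below all 3 WT libraries, and the gap was wider in sucrose. Tests here are limma fits of log2(FPKM + 1) over all genes of a set, with Benjamini-Hochberg adjusted p-values and calls at an adjusted p under 0.05. The difference was -0.78 ± 0.04 (log2, SE) in glucose, with an adjusted p of 1.13e-09. In sucrose it was -1.61 ± 0.04 with an adjusted p of 1.19e-12, the 33rd lowest of 5830 genes tested.

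HAP4 also answered the sugars in opposite directions in these strains. In Ada3-3KR the sucrose libraries lay below the glucose libraries, by -0.21 ± 0.04 (log2, SE) with an adjusted p of 4.74e-04, a level 0.862 times as high. In WT of the same set the sucrose libraries lay above the glucose libraries, by 0.61 ± 0.04 with an adjusted p of 2.09e-08, a level 1.53 times as high. The mutant's sucrose effect minus that of WT was -0.82 ± 0.06 with an adjusted p of 8.83e-08. Libraries of whole cultures cannot tell fewer cells with a transcript from less of it per cell.

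HAP4 was far higher in the bromodomain mutants in sucrose and not in glucose. Gcn5m in sucrose had 630.2, 606 and 619.8 FPKM and Spt7m in sucrose had 519, 517 and 501 FPKM, against 259.8, 259.9 and 261.6 FPKM in WT. The 3 groups did not overlap. Over WT, HAP4 was higher by 1.24 ± 0.03 (log2, SE) in Gcn5m (adjusted p = 1.49e-15) and by 0.97 ± 0.03 in Spt7m (adjusted p = 6.35e-14). These values ranked 91st and 147th from the highest of 5841 genes tested.

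In glucose the same gene stood at 185, 194 and 182 FPKM in Gcn5m and at 162, 155 and 159 FPKM in Spt7m, against 186, 189 and 196 FPKM in WT. Gcn5m overlapped WT, with a difference of -0.025 ± 0.03 (log2, SE) and an adjusted p of 0.552. This value became 0.10, with an adjusted p of 0.0326, under quantile normalization. Spt7m lay below WT by -0.26 ± 0.03 with an adjusted p of 5.22e-06. Between the mutants, HAP4 was higher in Gcn5m than in Spt7m by 0.24 ± 0.03 in glucose (adjusted p = 5.46e-05) and by 0.27 ± 0.03 in sucrose (adjusted p = 1.13e-05).

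HAP4 differed most between the sugars in the bromodomain mutants. In sucrose its level was 3.30 times that in glucose in Gcn5m and 3.23 times in Spt7m, against 1.37 times in their WT. The 3 sucrose effects were 1.72 ± 0.03, 1.69 ± 0.03 and 0.45 ± 0.03 (log2, SE), with adjusted p-values of 5.8e-18, 6.78e-18 and 2.73e-09. The median gene also lay above 0 in these comparisons, at 0.20, 0.19 and 0.17, and quantile normalization or median rescaling brought that median to between -0.07 and -0.03. Relative to the median gene, HAP4 was higher by 1.52 in Gcn5m, 1.50 in Spt7m and 0.27 in WT. The mutant's sucrose effect minus that of WT was 1.27 ± 0.05 for Gcn5m (adjusted p = 1.16e-12) and 1.24 ± 0.05 for Spt7m (adjusted p = 1.27e-12).

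**Figure D2:**
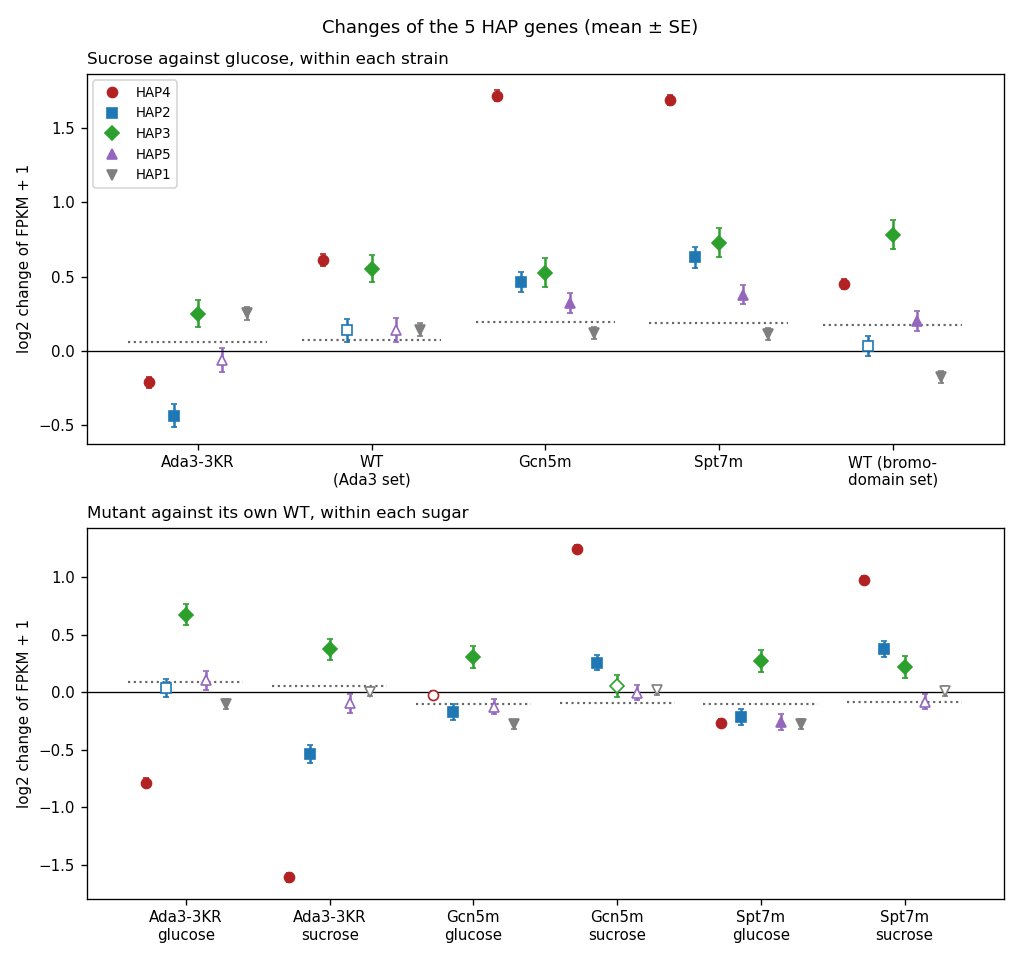
Change of each HAP gene (vertical axes, log2 change of FPKM + 1, with its SE) between sucrose and glucose within each strain (top) and between each mutant and its own WT within each sugar (bottom); filled symbols have an adjusted p under 0.05 and dotted lines mark the median of all genes tested. HAP4 ranges from -1.61 in Ada3-3KR against WT in sucrose to 1.72 in Gcn5m between the sugars.

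HAP2 encodes a DNA-binding subunit and lies on chromosome VII (YGL237C, positions 52731 to 53528, reverse strand). In sucrose it had 28.4, 31.3 and 27.5 FPKM in Ada3-3KR, against 46.5, 37.8 and 43.4 FPKM in WT. The groups did not overlap, and HAP2 was lower in Ada3-3KR by -0.53 ± 0.08 (log2, SE) with an adjusted p of 4.8e-05. In glucose it had 41.1, 41.8 and 35.9 FPKM in Ada3-3KR, against 38.0, 38.3 and 38.9 FPKM in WT, and the adjusted p was 0.668. Between the sugars HAP2 was lower in sucrose in Ada3-3KR (-0.43 ± 0.08, adjusted p = 3.1e-04), whereas in WT it was 0.14 ± 0.08 with an adjusted p of 0.155, and of 0.0258 without WT sucrose replicate 2. The mutant's sucrose effect minus that of WT was -0.57 ± 0.11, with an adjusted p of 8.62e-04.

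In the bromodomain mutants HAP2 was higher in sucrose. Its level there was 49.4, 49.2 and 46.9 FPKM in Gcn5m and 50.2, 50.1 and 58.4 FPKM in Spt7m, against 39.3, 42.2 and 39.6 FPKM in WT. Both mutants lay above every WT library, by 0.26 ± 0.07 (log2, SE) in Gcn5m (adjusted p = 0.0027) and 0.38 ± 0.07 in Spt7m (adjusted p = 8.91e-05). In glucose it was lower in both, at 37.4, 36.7 and 31.0 FPKM in Gcn5m and 34.5, 32.2 and 34.6 FPKM in Spt7m, against 40.4, 37.8 and 40.1 FPKM in WT. Those differences were -0.17 ± 0.07 (adjusted p = 0.0396) and -0.22 ± 0.07 (adjusted p = 0.0136), and both lost the call under quantile normalization, at adjusted p-values of 0.272 and 0.108. The Gcn5m call was also lost without Gcn5m replicate 3 or WT replicate 1 or 3 (adjusted p up to 0.255), and the Spt7m call without Spt7m replicate 2 (adjusted p = 0.0603). HAP2 was higher in sucrose than in glucose in Gcn5m (0.46 ± 0.07, adjusted p = 8.99e-06) and in Spt7m (0.63 ± 0.07, adjusted p = 1.74e-07). In WT of this set its value was 0.03 ± 0.07 with an adjusted p of 0.687, and under quantile normalization it was -0.20 with an adjusted p of 0.0185. The mutant's sucrose effect exceeded that of WT by 0.43 ± 0.10 in Gcn5m (adjusted p = 0.00189) and by 0.60 ± 0.10 in Spt7m (adjusted p = 6.79e-05).

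HAP3, a histone-fold subunit of the DNA-binding part, is the shortest member, with 435 bases on chromosome II (YBL021C, positions 181660 to 182094, reverse strand). In Ada3-3KR against WT it was higher, where HAP4 was lower. In glucose it had 38.4, 41.1 and 32.2 FPKM in Ada3-3KR, against 24.4, 23.5 and 20.7 FPKM in WT, and in sucrose it had 44.8, 47.4 and 41.0 FPKM in Ada3-3KR, against 31.1, 35.6 and 35.2 FPKM in WT. All mutant libraries lay above those of WT in the same sugar. The differences were 0.68 ± 0.09 (log2, SE) in glucose, with an adjusted p of 1.92e-05, and 0.38 ± 0.09 in sucrose, with an adjusted p of 0.00299.

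HAP3 was called higher in sucrose than in glucose in every strain of both sets. In WT it was 48.6% higher in the Ada3 set (0.55 ± 0.09, adjusted p = 2.14e-04). In the bromodomain set it had 50.3, 44.7 and 56.4 FPKM in WT in sucrose, against 28.1, 27.7 and 30.8 FPKM in WT in glucose, a change of 0.78 ± 0.10 with an adjusted p of 1.41e-06. The changes were 0.53 ± 0.10 in Gcn5m and 0.73 ± 0.10 in Spt7m, with adjusted p-values of 8.54e-05 and 1.93e-06. In Ada3-3KR the change was 0.25 ± 0.09 with an adjusted p of 0.0319 and overlapping groups, and the call was lost under quantile normalization (adjusted p = 0.124) and without glucose replicate 3 or sucrose replicate 1 or 2 (adjusted p up to 0.151).

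Differences of HAP3 between the bromodomain mutants and WT were small in sucrose. It had 56.9, 53.3 and 47.0 FPKM in Gcn5m and 57.7, 58.7 and 59.7 FPKM in Spt7m, with the WT values given above. Gcn5m overlapped WT (0.05 ± 0.10, adjusted p = 0.623). Spt7m lay above all WT libraries, by 0.22 ± 0.10 with an adjusted p of 0.0496. That call was lost without any 1 of the 6 libraries other than WT replicate 3, with an adjusted p of up to 0.240 (without WT replicate 2). In glucose HAP3 was higher than in WT by 0.31 ± 0.10 in Gcn5m (adjusted p = 0.00949) and by 0.27 ± 0.10 in Spt7m (adjusted p = 0.0232), and the Gcn5m group overlapped WT. The Gcn5m call was lost without Gcn5m replicate 2 (adjusted p = 0.0512), and the Spt7m call without Spt7m replicate 1 or WT replicate 1 or 2 (adjusted p up to 0.0996). None of the 3 differences between a mutant's sucrose effect and that of WT was called for HAP3, with adjusted p-values of 0.0797, 0.142 and 0.766 for Ada3-3KR, Gcn5m and Spt7m. The first was called without Ada3-3KR glucose replicate 3 (0.0156) or WT sucrose replicate 1 (0.0455), and the second without Gcn5m glucose replicate 1 (0.0210).

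HAP5, the third DNA-binding subunit, lies on chromosome XV (YOR358W, positions 1010161 to 1010889, forward strand) and was the steadiest subunit gene in the Ada3 set. Its group means there lay between 39.5 and 43.6 FPKM, and it passed none of the 5 tests of that set, with adjusted p-values from 0.168 to 0.564. Its WT change between the sugars, 0.14 ± 0.08, was called without WT glucose replicate 2 (adjusted p = 0.0379) or WT sucrose replicate 2 (adjusted p = 0.0408). Its bromodomain values were 31.2, 32.3 and 33.8 FPKM in Gcn5m and 28.6, 33.5 and 26.7 FPKM in Spt7m in glucose, against 35.4, 37.2 and 33.7 FPKM in WT. It was called lower in Spt7m (-0.26 ± 0.07, adjusted p = 0.00324), a call lost under quantile normalization (-0.17, adjusted p = 0.0536), and not in Gcn5m (-0.12 ± 0.07, adjusted p = 0.111). The difference between the mutants, 0.13 ± 0.07 with an adjusted p of 0.144, was called without Spt7m replicate 2 (adjusted p = 0.0102). Between the sugars HAP5 was higher in sucrose by 0.32 ± 0.07 in Gcn5m and by 0.38 ± 0.07 in Spt7m, with adjusted p-values of 2.6e-04 and 4.62e-05. Relative to the median gene these changes were 0.13 and 0.19, and quantile normalization took their adjusted p-values to 0.374 and 0.120. In WT the change was 0.20 ± 0.07 with an adjusted p of 0.0117, and it turned to -0.025 under quantile normalization and lost the call without glucose replicate 3 (adjusted p = 0.0566). In sucrose the differences from WT were -0.0040 ± 0.07 in Gcn5m (adjusted p = 0.958) and -0.08 ± 0.07 in Spt7m (adjusted p = 0.280).

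HAP1 encodes the heme-responsive activator and lies on chromosome XII (YLR256W, positions 646415 to 650923, forward strand). In strains of the S288C background, from which BY4741 comes, a Ty1 element is inserted near its 3' end. The annotated element covers the last 100 of its 4509 bases, 2.22% of the gene, where reads from other Ty1 copies could be counted. RNA levels do not show how active the Hap1 made from this interrupted gene is. This also limits the reading of its targets below. HAP1 had group means from 51.5 to 61.5 FPKM in the Ada3 set and from 59.1 to 71.9 FPKM in the bromodomain set.

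In glucose HAP1 had 59.0, 61.8 and 56.5 FPKM in Gcn5m and 59.7, 59.0 and 59.1 FPKM in Spt7m, against 70.3, 71.5 and 73.9 FPKM in WT. Both mutants lay below every WT library, by -0.28 ± 0.04 (log2, SE) in Gcn5m (adjusted p = 1.24e-05) and -0.27 ± 0.04 in Spt7m (adjusted p = 2.3e-05). In sucrose the 3 strains overlapped, at 62.8 to 65.5 FPKM in Gcn5m, 62.4 to 65.4 FPKM in Spt7m and 61.8 to 64.8 FPKM in WT. The mutant's sucrose effect exceeded that of WT by 0.30 ± 0.06 in Gcn5m (adjusted p = 5.43e-04) and by 0.29 ± 0.06 in Spt7m (adjusted p = 5.49e-04). The sucrose effects themselves were 0.12 ± 0.04 in Gcn5m, 0.11 ± 0.04 in Spt7m and -0.17 ± 0.04 in WT. For the mutants that direction turned to -0.13 and -0.16 under quantile normalization. HAP1 was then called lower in sucrose in both (adjusted p = 0.00811 in Gcn5m and 0.00129 in Spt7m). On the values as deposited, the Gcn5m call was lost without glucose replicate 3 (adjusted p = 0.0649). The Spt7m call was lost without sucrose replicate 2 (adjusted p = 0.0719). In the Ada3 set HAP1 was higher in sucrose by 0.25 ± 0.04 in Ada3-3KR (adjusted p = 1.89e-04) and by 0.14 ± 0.04 in WT (adjusted p = 0.0126), and the WT value was 0.032 under quantile normalization, with an adjusted p of 0.580. Without WT replicate 1 of either sugar the WT call was lost (adjusted p = 0.0556 and 0.0575). Against WT, HAP1 in Ada3-3KR was -0.10 ± 0.04 in glucose with an adjusted p of 0.0474, a call lost without 1 of 4 libraries (replicates 2 and 3 of each strain, adjusted p up to 0.145), and in sucrose the adjusted p was 0.907.

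Calls of the 5 genes are counted here by comparison, and comparisons that share libraries are not separate results. These counts have to be read against the large share of all genes called. Between sucrose and glucose, 4 of 5 were called in Ada3-3KR (2 higher, 2 lower), where 50.7% of all genes tested were called, and 3 of 5 in its WT, all higher, where 32.7% of all genes were called higher. In Gcn5m and in Spt7m all 5 were called higher, where 52.2% and 51.6% of all genes were. Under quantile normalization HAP1 was called lower and HAP5 was not called, in both mutants. In WT of the bromodomain set 4 of 5 were called, 3 of them higher, where 66.7% of all genes were called. Of the 5, 3 were called in Ada3-3KR against WT in glucose (1 higher, 2 lower) and 3 in sucrose (1 higher, 2 lower), where 62.2% and 55.9% of all genes were called.

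In Gcn5m against WT, 3 of 5 were called in glucose (1 higher, 2 lower) and 2 in sucrose, both higher, where 62.0% of all genes were called in glucose and 28.0% were called higher in sucrose. In Spt7m against WT all 5 were called in glucose (1 higher, 4 lower), where 53.2% of all genes were, and 3 were called higher in sucrose, where 28.8% of all genes were. Between Gcn5m and Spt7m, HAP4 was the only member called in glucose and in sucrose, where 27.7% and 19.7% of all genes were called. For the sucrose effect of a mutant minus that of WT, 2 of 5 were called lower for Ada3-3KR, where 21.6% of all genes were. For Gcn5m and for Spt7m 3 of 5 were called higher, where 20.9% and 23.9% of all genes were.

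In level, HAP4 stood first and HAP1 second in all 10 groups, and neither range overlapped that of the next gene. Below them HAP2, HAP3 and HAP5 changed places. HAP3 was the lowest in WT of the Ada3 set in both sugars and in WT of the bromodomain set in glucose. In sucrose its mean stood next below HAP1 in Ada3-3KR, Gcn5m, Spt7m and WT of the bromodomain set, but in the 3 mutants its range overlapped that of the gene below it. In the glucose groups of all 3 mutants the ranges of neighbours among these 3 genes overlapped, so their order there is not resolved.

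HAP4 was also divided by the mean of its partners within each library, as a description. With HAP4 as the numerator, such a ratio moves with HAP4 unless the partners change as much. HAP4 divided by the mean of HAP2, HAP3 and HAP5 was 2.08 ± 0.115 (SD, n = 3) in Ada3-3KR in sucrose and 2.31 ± 0.263 in Ada3-3KR in glucose, against 6.06 ± 0.313 and 4.72 ± 0.240 in WT. For the bromodomain strains the ratio in sucrose was 13.1 ± 0.483 in Gcn5m and 10.2 ± 0.520 in Spt7m, against 5.93 ± 0.170 in WT. In glucose it was 5.43 ± 0.177 in Gcn5m and 4.84 ± 0.220 in Spt7m, against 5.51 ± 0.119 in WT. As a description over libraries that share strain and sugar, HAP4 correlated with HAP2, HAP3 and HAP5 at 0.90, 0.81 and 0.72 over the 18 libraries of the bromodomain set. The same values over the 12 Ada3 libraries were 0.68, -0.54 and 0.18.

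**Figure D3:**
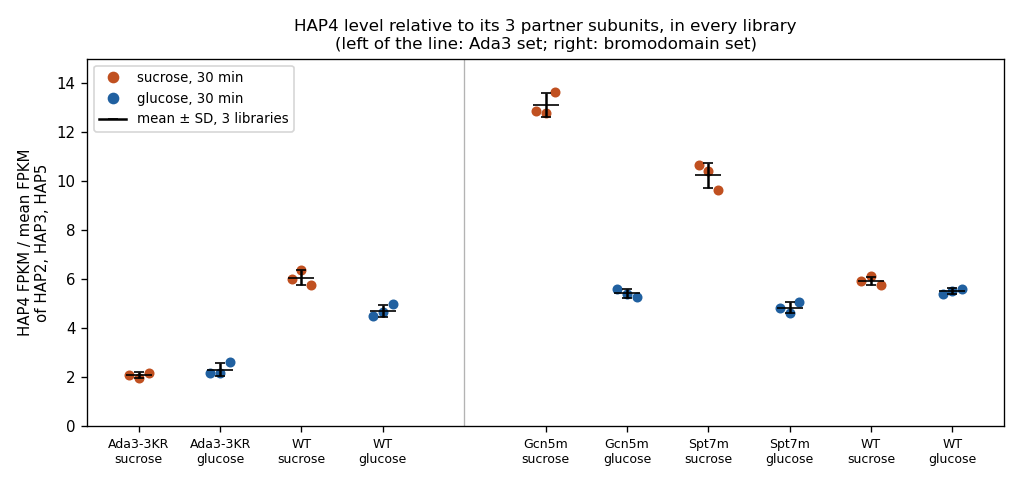
FPKM of HAP4 divided by the mean FPKM of HAP2, HAP3 and HAP5 (vertical axis, no unit) in every library, with mean ± SD of 3. The ratio lies near 2 in both sugars in Ada3-3KR, at 13.1 in Gcn5m in sucrose, and between 4.72 and 6.06 in the WT groups.

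The genes the complex is known to drive were read from a list of 25 respiratory targets, all of which passed the filter. They cover cytochrome c and the subunits of the respiratory complexes, ATP synthase, enzymes of the citric acid cycle, HEM1 of heme synthesis, the ADP/ATP carrier gene PET9 and the mitochondrial superoxide dismutase gene SOD2. A CCAAT box lay within 500 bases before the start codon in 22 of 25 (88.0%), against 62.4% of 6000 genes, and the extended box in 10 of 25 (40.0%), against 8.6% of all genes. The 10 extended boxes are shown here in capitals within 30 bases, because CCAAT boxes are the sites the complex is known to bind.
COR1, chrII:135849-135878, reverse strand: acgctttctgcACCAATGAaatgccaataa
RIP1, chrV:107001-107030, forward strand: ctccataacggACCAATCAgcgttttgcgc
QCR7, chrIV:1496712-1496741, reverse strand: atcttgttttgACCAATCAggagcgacgcg
COX6, chrVIII:209477-209506, reverse strand: gctttgaccggACCAATTAggtcccttttc
ATP3, chrII:315368-315397, forward strand: cgtgatggagaACCAATGAgcggcgagtaa
SDH1, chrXI:171429-171458, reverse strand: ggcgggggtggACCAATCAcagcgcagaac
ACO1, chrXII:737821-737850, reverse strand: caaaggtcctgACCAATCAatagagaaatt
HEM1, chrIV:927062-927091, reverse strand: cgcggccgcagACCAATGAgcgacgaaggc
PET9, chrII:164289-164318, forward strand: ccgcgctctacACCAATCAgcatagcgcat
SOD2, chrVIII:123795-123824, reverse strand: cttaaacctggACCAATAAcacaggccgaa

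The targets were higher in Ada3-3KR, where HAP4 was lower. Against WT, 24 of 25 were called higher in glucose and none lower, with a median of 0.80 (log2), where 40.2% of all genes were called higher and their median was 0.09. In sucrose, 23 were called higher and 1, CIT1, was called lower, with a median of 0.47, where 33.8% of all genes were called higher and their median was 0.05. CYC1, the gene of the main isoform of cytochrome c, had 243, 244 and 248 FPKM in Ada3-3KR in sucrose, against 160, 180.5 and 182 FPKM in WT, and was higher by 0.49 ± 0.05 (adjusted p = 4.04e-06). SDH1, of succinate dehydrogenase, had 215, 217 and 213 FPKM in Ada3-3KR in sucrose, against 157, 147 and 148 FPKM in WT. In glucose the differences of SDH1 and QCR2, of the cytochrome bc1 complex, were 1.03 and 1.02. CIT1, mitochondrial citrate synthase, was the target that was lower in sucrose, by -0.12 ± 0.03 (adjusted p = 0.00161), and it was higher in glucose, by 0.82 ± 0.03.

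The sucrose response of the targets was smaller in Ada3-3KR. Between the sugars, 5 of 25 were called higher in sucrose and 6 lower in Ada3-3KR, with a median of 0.02 that turned to -0.05 under median rescaling, where 32.9% of all genes were called higher and 17.7% lower. In WT 23 were called higher and 1 lower, with a median of 0.29, where 32.7% of all genes were called higher and their median was 0.08. Median rescaling brought the targets' WT median to 0.16. The mutant's sucrose effect minus that of WT was called lower for 24 of 25 and higher for none, with a median of -0.27, where 21.6% of all genes were called lower. Quantile normalization left 17 called lower, with a median of -0.19, and median rescaling left 19, with a median of -0.21.

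In Gcn5m the targets were lower while HAP4 was higher. Against WT in sucrose, 18 of 25 were called lower and 2, CIT1 and ACO1, higher, with a median of -0.43, where 42.6% of all genes were called lower and their median was -0.09. CYC1 had 31.6, 35.4 and 27.8 FPKM in Gcn5m and 109, 122 and 152 FPKM in Spt7m in sucrose, against 179, 176 and 178 FPKM in WT. Every Gcn5m library lay below every Spt7m library, and these below every WT library, and CYC1 was lower in Gcn5m than in WT by -2.46 ± 0.13 (adjusted p = 1.71e-11). The 2 targets that were higher encode the first enzymes of the citric acid cycle. CIT1 had 1680.4, 1651 and 1641 FPKM in Gcn5m and 1439.9, 1438 and 1413 FPKM in Spt7m, against 714, 694 and 779.7 FPKM in WT, and was higher by 1.19 ± 0.05 in Gcn5m and 0.97 ± 0.05 in Spt7m. ACO1, aconitase, was higher in Gcn5m by 0.72 ± 0.03 (adjusted p = 3.62e-12). In glucose, where HAP4 was not called in Gcn5m, 19 targets were called lower and 3 higher, with a median of -0.42, where 41.2% of all genes were called lower.

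In Spt7m the targets and HAP4 moved alike. Against WT in sucrose, 19 of 25 were called higher and 1 lower, with a median of 0.30, where 28.8% of all genes were called higher and their median was -0.08. In glucose, 17 were called lower and 3 higher, with a median of -0.30, where 37.5% of all genes were called lower. SDH1 had 82.7, 86.7 and 76.0 FPKM in Gcn5m and 197.5, 218 and 258 FPKM in Spt7m in sucrose, against 141, 139 and 125 FPKM in WT. It was lower in Gcn5m than in WT by -0.72 ± 0.08 (adjusted p = 2.39e-07) and higher in Spt7m than in WT by 0.72 ± 0.08 (adjusted p = 2.11e-07). Between the mutants in sucrose, 23 targets were called lower in Gcn5m than in Spt7m and 2 higher, with a median of -0.68, where 11.4% of all genes were called lower.

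Between the sugars the targets rose in all 3 strains of the bromodomain set. They were called higher in sucrose for 23 of 25 in Gcn5m, 25 of 25 in Spt7m and 23 of 25 in WT, with medians of 0.64, 1.20 and 0.64, where 52.2%, 51.6% and 50.9% of all genes were called higher and the medians of all genes were 0.20, 0.19 and 0.17. Median rescaling brought the targets' medians to 0.37, 0.93 and 0.38. Their sucrose effect exceeded that of WT for 23 of 25 in Spt7m, with a median of 0.59, where 23.9% of all genes were called higher. In Gcn5m it was called higher for 4 and lower for 6, where 20.9% of all genes were called higher and 20.7% lower, with a median of 0.05 that turned to -0.05 under quantile normalization. In Ada3-3KR against WT in glucose the median was 0.80 for the 10 targets with the extended box and 0.80 for the 15 without it, and in Gcn5m against Spt7m in sucrose it was -0.62 and -0.75. For sucrose against glucose in Gcn5m the medians were 0.74 with the box and 0.55 without it. For the sucrose effect of Gcn5m minus that of WT they were 0.062 and -0.13. The ranges there overlapped widely, from -0.47 to 0.73 with the box and from -1.61 to 0.70 without it. Whether targets with and without the box differ was not tested.

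**Figure D4:**
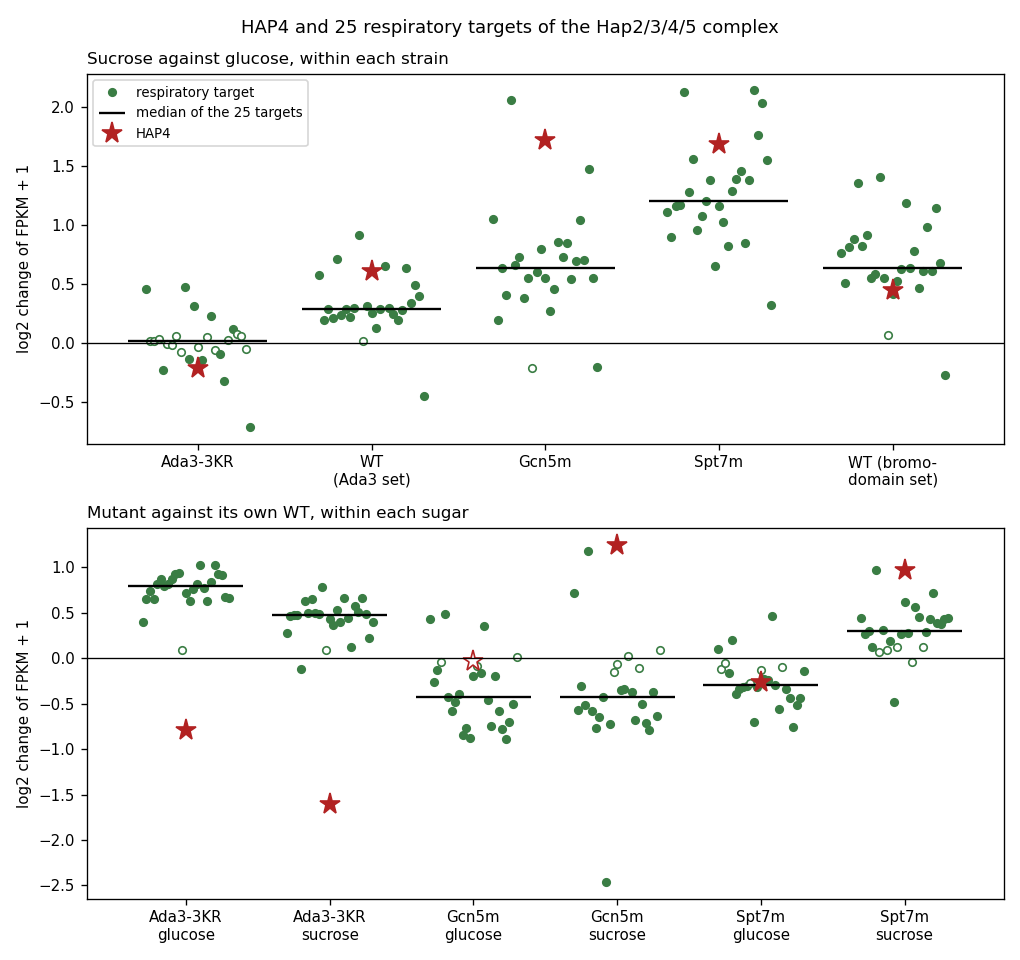
Change of 25 respiratory targets (points) and of HAP4 (stars) between sucrose and glucose within each strain (top) and between each mutant and its own WT (bottom), on vertical axes of log2 change of FPKM + 1; bars are medians of the targets and filled symbols have an adjusted p under 0.05. The stars lie at -0.78 and -1.61 in Ada3-3KR, below the target medians of 0.80 and 0.47, and at 1.24 in Gcn5m in sucrose, above the target median of -0.43.

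GDH1 and ASN1, nitrogen assimilation genes at which the Hap2, Hap3 and Hap5 core is known to act without Hap4, differed in opposite directions between the sets. GDH1, of glutamate synthesis, had 566, 588 and 558 FPKM in Ada3-3KR in sucrose, against 280.2, 262 and 285 FPKM in WT, and was higher by 1.05 ± 0.04 (adjusted p = 5.83e-11). Among the bromodomain strains it had 56.3, 57.6 and 51.9 FPKM in Gcn5m and 101, 107 and 117 FPKM in Spt7m in sucrose, against 243, 242 and 243 FPKM in WT. It was lower by -2.12 ± 0.05 in Gcn5m (adjusted p = 6.51e-16) and by -1.16 ± 0.05 in Spt7m (adjusted p = 3.38e-12). ASN1, asparagine synthetase, was higher in Ada3-3KR by 1.10 ± 0.03 (adjusted p = 4.35e-12) and lower by -0.71 ± 0.05 in Gcn5m and -0.79 ± 0.05 in Spt7m, all in sucrose. Both genes were called in these directions in glucose as well. In Spt7m in glucose 1 of the 2 genes lost its call under quantile normalization, under median rescaling and without Spt7m replicate 3.

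Regulators of glucose repression, and activators of the genes it represses, were read as a list of 9 genes. Whether any of them acts on HAP4 here was not tested. MIG1, the repressor that binds GC boxes, had 32.3, 35.1 and 34.1 FPKM in Ada3-3KR in sucrose, against 78.0, 75.7 and 78.8 FPKM in WT. It was lower by -1.17 ± 0.06 (adjusted p = 2.1e-09), and CAT8, an activator of gluconeogenic genes, was lower by -1.02 ± 0.07 (adjusted p = 6.98e-08). In glucose, where HAP4 was also lower in Ada3-3KR, MIG1 was lower by -0.45 ± 0.06 (adjusted p = 2.23e-05), CAT8 was 0.11 ± 0.07 with an adjusted p of 0.214, and 5 of the 9 genes were called higher and 2 lower, where 40.2% of all genes were called higher and 22.1% lower. In sucrose, MIG1 was higher by 0.44 ± 0.05 in Gcn5m and 0.41 ± 0.05 in Spt7m, and CAT8 by 0.51 ± 0.06 and 0.93 ± 0.06. ADR1, an activator of genes repressed by glucose, was lower in Ada3-3KR in sucrose by -0.23 ± 0.05 and higher by 1.08 ± 0.04 in Gcn5m and 0.81 ± 0.04 in Spt7m. HXK2, the hexokinase that takes part in the repression, was lower in Gcn5m (-0.37 ± 0.05) and Spt7m (-0.46 ± 0.05) in sucrose. Of the 9 genes in sucrose, 1 was called higher and 4 lower in Ada3-3KR, where 33.8% of all genes were called higher and 22.2% lower. In each bromodomain mutant 4 were called higher and 1 lower. Of all genes, 28.0% were called higher and 42.6% lower in Gcn5m, and 28.8% and 41.5% in Spt7m.

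The last list holds 11 genes known to depend on Hap1 or on heme and oxygen, of which CYC1 and CYT1 are also respiratory targets. They had no one direction across the mutants, but most were called lower in Gcn5m, against WT and against Spt7m. In Gcn5m against Spt7m, 8 were called lower and 1 higher in glucose, and 9 lower and 1 higher in sucrose. There 27.7% and 19.7% of all genes were called. Against WT in glucose, 6 were called higher and 2 lower in Ada3-3KR, 1 higher and 10 lower in Gcn5m, and 1 higher and 5 lower in Spt7m. The shares of all genes called higher and lower there were 40.2% and 22.1% in Ada3-3KR, 20.8% and 41.2% in Gcn5m, and 15.7% and 37.5% in Spt7m. In sucrose the counts were 6 higher and 3 lower in Ada3-3KR, 3 higher and 7 lower in Gcn5m, and 5 higher and 4 lower in Spt7m, where the shares of all genes were 33.8% and 22.2%, 28.0% and 42.6%, and 28.8% and 41.5% in the same order. YHB1, flavohemoglobin, was lower in sucrose by -2.28 ± 0.09 in Gcn5m and -1.08 ± 0.09 in Spt7m, while ROX1, the repressor of hypoxic genes, was higher by 1.44 ± 0.05 and 1.13 ± 0.05. CTT1, cytosolic catalase, was lower in glucose by -2.14 ± 0.08 in Gcn5m and -1.76 ± 0.08 in Spt7m and higher in Ada3-3KR by 0.87 ± 0.04. HAP1 itself differed by at most 0.28 in size in the same comparisons. The Hap1 site, searched as a direct repeat of CGG around TA, had no match within 500 bases before the start codon in any of the 11, against 0.35% of all genes, and within 1000 bases it matched 2 of the 11 (18.2%), CYT1 and NCP1, against 0.967% of all genes.

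The genes whose levels were most like those of HAP4 were SUT1, ICY1, YDR262W, SPO24 and CIT2. They were taken as the 5 with the highest lower value of Pearson's r, on log2(FPKM + 1), over the 12 libraries of the Ada3 set and the 18 of the bromodomain set, among 5420 genes averaging 5 FPKM or more. Their r was 0.985 and 0.976 for SUT1, 0.989 and 0.971 for ICY1, 0.970 and 0.974 for YDR262W, 0.993 and 0.967 for SPO24, and 0.974 and 0.954 for CIT2. These libraries share strains and sugars, so the values are descriptions. CIT2, peroxisomal citrate synthase, averaged 35.4 ± 1.03 FPKM in Ada3-3KR in sucrose, against 594 ± 14.1 FPKM in WT (SD, n = 3). In the bromodomain set in sucrose it averaged 3112 ± 109 FPKM in Gcn5m and 2504 ± 78.6 FPKM in Spt7m, against 1258 ± 101 FPKM in WT. SUT1, a transcription factor of sterol uptake, averaged 13.2 ± 0.983 FPKM in Ada3-3KR in sucrose, against 54.7 ± 1.84 FPKM in WT. None of the 25 respiratory targets was among the 5. With 5 places for 5420 genes, that absence says little about the targets.

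**Figure D5:**
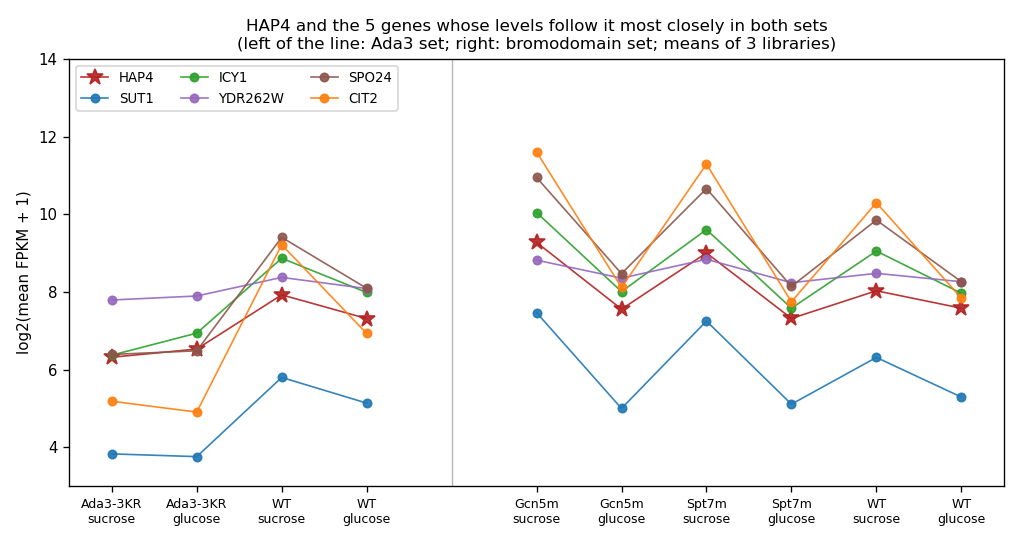
Mean level of HAP4 and of the 5 genes most like it in both sets (vertical axis, log2 of mean FPKM + 1) in each strain and sugar; points are means of 3 libraries, and lines join the groups of a set for reading only. CIT2 spans the widest range, with means from 29.0 FPKM in Ada3-3KR in glucose to 3112 FPKM in Gcn5m in sucrose, and YDR262W the narrowest.

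For the other members the likest genes were less close. They were FAT3 for HAP2 (0.913 over the Ada3 set and 0.936 over the bromodomain set), LSC1 for HAP3 (0.953 and 0.941), AAD10 for HAP5 (0.807 and 0.803) and IZH1 for HAP1 (0.931 and 0.857). LSC1 encodes a subunit of succinyl-CoA ligase of the citric acid cycle.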

How the data were processed

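Values are FPKM per gene and library in 2 tables, deposited by the authors and used as they stand. Per the submitters' processing notes, the tools were HISAT2 2.1.0, StringTie 1.3.3b and cutadapt 1.16, and the build was R64. The annotation and any strand setting are not given in the sources used here, and FPKM keep no depth from which a counting error could be had. Libraries were prepared from total RNA extracted with Trizol using a TruSeq kit, per the labels' protocols.

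Each table was analysed on its own, and nothing was tested across tables. Genes averaging 1 FPKM or more across a table were kept (5830 and 5841 of 6101). log2(FPKM + 1) was fitted with limma 3.58.1 (R 4.3.3, trended variance), with 1 mean per strain and sugar over all groups of a table, and p-values were adjusted by the Benjamini-Hochberg method over all genes tested. A fold change on this scale understates the change of low genes. There were 16 comparisons, 3 of them differences between sucrose effects. An exact permutation test of 3 libraries against 3 cannot go below 0.1 and was not used. The fit was checked on simulated data with known changes. These had independent noise and few changed genes. The check therefore does not show how the fit does where libraries correlate or many genes change.

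Named genes are the 5 members, the listed targets with the largest changes and the genes most like each member. The members and lists were chosen with earlier results of these data known. Deviations from the group means correlated at -0.25 to 0.41 between same-numbered libraries of the Ada3 set (11 of 18 pairs over 0.1, against 10 of 36 pairs with different numbers) and at -0.43 to 0.34 in the bromodomain set (13 of 45, against 34 of 90). All 3 pairs were over 0.1 in 1 comparison, sucrose against glucose in WT of the Ada3 set (0.118 to 0.408), and there the block changed no HAP gene's call; in the others the numbers were not taken to pair the libraries. Sequences, loci and motif matches come from RefSeq's R64 genome with Python 3.11.15, and 6094 of 6101 names matched its annotation. Alternatives were a pseudocount of 0.1 FPKM, a filter at 5 FPKM, no filter, quantile normalization, median rescaling, a replicate block, fits of the compared groups only, and leaving out each library in turn.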

Additional observations from a re-analysis of the deposited data

Results flagged for a closer look

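For 8 results the sucrose effect differed between a mutant and its WT by a test of the difference itself, the mutant's effect minus that of WT on the log2 scale. For Ada3-3KR these were HAP2 (-0.57) and HAP4 (-0.82). For Gcn5m they were HAP1 (0.30), HAP2 (0.43) and HAP4 (1.27). For Spt7m they were HAP1 (0.29), HAP2 (0.60) and HAP4 (1.24). The values for Gcn5m and Spt7m share their WT libraries. Groups of 3 libraries are too small for a test of single outlying libraries.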

How the results depend on the processing

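The tables hold no counts, so how far depth limits these values is unknown. HAP4 kept its direction and its call wherever it was called, under each alternative run and without each library in turn; its sucrose effect in WT of the bromodomain set ranged down to 0.19. Scaling mattered most. Quantile normalization gave HAP4 a value of 0.10 in Gcn5m against WT in glucose, and it left 3 HAP genes called in Spt7m against WT in glucose, against 5 as reported. For sucrose against glucose, quantile normalization and median rescaling gave -0.20 and -0.22 for HAP2 and -0.025 and -0.048 for HAP5 in WT of the bromodomain set. They gave HAP1 -0.13 and -0.13 in Gcn5m, and -0.16 and -0.15 in Spt7m. Under both settings these HAP1 and HAP2 values were called lower, with adjusted p-values of at most 0.0185. Those of HAP5 were not called. The cause was not tested. Rescaling lowers the share of higher calls among all genes, from 76.4% to 45.0% (quantile) in WT of the bromodomain set, from 70.5% to 45.4% in Gcn5m, from 67.9% to 46.4% in Spt7m, from 70.2% to 42.3% in WT of the Ada3 set and from 65.0% to 49.9% in Ada3-3KR. For mutant against WT in glucose it raises that share from 33.6% to 48.8% in Gcn5m and from 29.5% to 48.0% in Spt7m. Leaving out 1 library moved the number of HAP genes called between sucrose and glucose in WT of the Ada3 set over 2 to 5 (5 without WT sucrose replicate 2), and between Gcn5m and Spt7m in glucose over 1 to 2 (2 without Spt7m glucose replicate 2). With all libraries, 4 of the 25 respiratory targets were called higher and 8 lower in Gcn5m than in Spt7m in glucose, where 27.7% of all genes were called. These 12 calls fell to 6 to 11 without 1 library (6 without Spt7m glucose replicate 1). All genes called between Gcn5m and Spt7m in sucrose fell to 748 without Spt7m sucrose replicate 3, against 1151. With the replicate block, HAP4 was -1.61 in Ada3-3KR, 1.24 in Gcn5m and 0.97 in Spt7m against WT in sucrose. The block changed 4 calls of single HAP genes: HAP1 in Ada3-3KR against WT in glucose (adjusted p = 0.0630), HAP2 in Gcn5m against WT in glucose (0.0522) and HAP3 in Spt7m against WT in sucrose (0.0622) were no longer called, and HAP3 was called for the Ada3-3KR sucrose effect minus that of WT (0.0409). Over the 5 genes, called results kept direction and call in 321 cases, lost the call in 21 and reversed in 6 under other settings, and without 1 library kept both in 323 cases and lost the call in 25.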
